A study of Gossypium hirsutum with 8 samples.

Results

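The genes CelA1, E6, H6L and GRPL1 of upland cotton were read by 8 probe sets of the Affymetrix cotton array, out of 24029 probe sets tested, and are 4 of the 246 genes that carry a name here. They were taken by name: every probe set that the platform's table pairs with 1 gene, where that gene has CelA1, E6, H6L or GRPL1 among its RefSeq synonyms. CelA1 (LOC107909647) had 2 probe sets, E6 (LOC107913945) 1, H6L (LOC107908860) 1 and GRPL1 (LOC107953490) 4. Another RefSeq gene also carries the synonym E6, and no probe set of the array was paired with it. All plants were of cultivar Sicot 71, grown in soil in a glasshouse until they had 2 leaves. Flooded roots came from plants whose whole root system had been submerged for 4 h, and control roots from normally watered plants. Flooded leaves were first leaves taken after 24 h of the same submergence, with unflooded leaves as their control. Each of these 4 groups had 2 arrays, and the labels call the replicates biological without saying how many plants stand behind each. No sampling time is given for the controls. Time and tissue changed together between the root and leaf comparisons, so these cannot be told apart.

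Cellulose is spun into the plant wall by cellulose synthase, a complex in the plasma membrane that joins glucose from UDP-glucose into chains. CelA1 encodes a catalytic subunit first cloned from cotton fibre, the single-celled hair of the seed coat, where it is known from thickening of the secondary wall. E6 is an abundant fibre protein of unknown function whose promoter is widely used to drive transgenes in fibre. H6 of cotton fibre is a proline-rich wall protein, and H6L is named after it. GRPL1 shares its RefSeq entry with the names GRPL2 and rgp1, and the tables used here do not say what its protein does. The study asked how transcripts of roots and leaves respond to waterlogging.

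The 4 genes were selected on measured values of these same arrays, above all the low signals of CelA1, E6 and H6L in flooded root and of GRPL1 in flooded leaf. Differences between flooded and control arrays are therefore a description. Where the threshold of the fit is mentioned for these genes it only places their values, and it tests nothing. The differences were not of the same size in root and leaf, and those of H6L and the brighter CelA1 probe set also changed sign. E6, H6L and the brighter CelA1 probe set were lower in flooded than in control root by 1.60 to 2.37 log2 units, but in flooded leaf H6L lay above its control by 1.14 and CelA1 by 0.73, and E6 differed from its control by -0.34. The CelA1 leaf difference had a 95% interval of -0.13 to 1.59. GRPL1 had its largest differences in leaf. Its brighter pair of probe sets stood at -2.53 and -2.23 there, and at -0.52 and -0.74 in root. Another GRPL1 probe set stood at 0.44 in leaf.

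Signals were the deposited values on the log2 scale, where 1 unit is a doubling; the submitters' processing notes name RMA, a summary of the probes of each probe set. Replicate arrays correlated least in control root (r = 0.953 across probe sets) and at 0.984 to 0.994 in the other groups. Root and leaf arrays did not share a scale, since the lowest signals were 3.99 to 4.10 on root arrays and 2.49 to 2.65 on leaf arrays, so signals are compared within a tissue and percentiles within an array are used across tissues. The leaf marker RCA1, rubisco activase, averaged 14.64 in flooded and 14.55 in control leaf, and 5.23 in flooded and 5.57 in control root. The only named root marker, the aquaporin NIP6.1, averaged 7.49 in flooded root, 8.53 in control root, 7.83 in flooded leaf and 5.65 in control leaf. It was 2.88 higher in control root than in control leaf, where the median over all probe sets was 1.08. In flooded root it was not above flooded leaf, so it did not mark root across the 4 groups. Fewer cells of a type and less RNA per cell cannot be told apart in these tissue samples.

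CelA1 was read mainly by its brighter probe set. Its signal there was 8.77 and 9.25 on the flooded root arrays, against 10.36 and 10.86 on the control root arrays. The groups did not overlap, and the flooded arrays were 3.03-fold lower (log2 difference -1.60, SE 0.37). In leaf it read 7.79 and 8.21 on flooded arrays and 7.77 and 6.77 on control arrays. Both flooded leaf arrays were above both control arrays, with the nearest pair at 7.79 and 7.77, and the mean difference of 0.73 (SE 0.37) had a 95% interval of -0.13 to 1.59. Without control leaf replicate 1 this difference was 1.23, and without control leaf replicate 2 it was 0.23.

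The other CelA1 probe set was dim in all groups. It read 5.04 and 4.91 in flooded root and 5.22 and 5.99 in control root, and 4.66 and 4.42 in flooded leaf and 4.50 and 4.85 in control leaf. The 52 probe sets that the array labels as reporters had a 95th percentile of 6.13 in flooded root, 6.43 in control root, 5.45 in flooded leaf and 5.60 in control leaf. This CelA1 probe set lay under those bounds in every group, so its differences of -0.63 in root and -0.13 in leaf say little about the gene. Whether the pair of probe sets reads the same transcript was not tested. Which strand is read by these CelA1 probe sets, and by the brightest of GRPL1, is not known here.

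E6 was read by a single probe set, whose suffix marks probes shared by related transcripts. Its signal was 8.48 and 9.10 in flooded root, against 11.41 and 10.91 in control root. The flooded arrays were 5.17-fold lower (log2 difference -2.37, SE 0.32) and did not overlap the controls. In leaf the values were 6.72 and 7.03 on flooded arrays and 6.89 and 7.55 on control arrays, so that the groups overlapped. The leaf difference was -0.34 (SE 0.32), with a 95% interval of -1.09 to 0.40, which includes 0.

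H6L was also read by a single probe set of the shared type. Flooded roots gave 8.39 and 8.48, against 10.55 and 10.71 in control roots. Each pair of replicates was tight (SD 0.07 and 0.11, n = 2 each) and the groups did not overlap. The signal was 4.59-fold lower in flooded arrays (log2 difference -2.20, SE 0.25). In leaf the order was turned round: flooded arrays read 7.77 and 8.46 and control arrays 7.13 and 6.82. Flooded leaves were 2.20-fold higher (log2 difference 1.14, SE 0.25), with both flooded arrays above both controls. Without flooded leaf replicate 2, the brighter of the pair, the difference was 0.79, and without replicate 1 it was 1.48.

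GRPL1 was read by 4 probe sets, of which 3 were lower in flooded leaf and 1 was not. The brightest read 6.25 and 6.18 in flooded leaf, against 8.39 and 9.10 in control leaf, a 5.78-fold lower signal after flooding (log2 difference -2.53, SE 0.38). The next in brightness read 5.64 and 5.71 in flooded leaf and 7.26 and 8.55 in control leaf, and was 4.70-fold lower (log2 difference -2.23, SE 0.40). On both, the flooded pair was tight and the control pair wide, and the groups did not overlap. The size of the difference rested partly on control leaf replicate 2: without it the values were -2.17 and -1.59.

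The third read 6.86 and 6.84 in flooded leaf and 6.57 and 6.25 in control leaf, a difference of 0.44 (SE 0.22) in the other direction. The fourth was among the dimmest signals, at 3.12 and 3.10 in flooded leaf and 3.39 and 4.04 in control leaf, where the difference was -0.60 (SE 0.23). Both flooded arrays were below both controls, as on the brighter pair, but the signal lay below the reporter bound in both leaf groups, so the size of this difference says little. The root differences of GRPL1 were smaller. The brightest read 8.71 and 8.10 in flooded root and 9.41 and 8.44 in control root, with overlap, and the next read 7.85 and 7.53 in flooded root and 8.16 and 8.71 in control root, without overlap. Over the 4 GRPL1 probe sets the root difference ran from -0.74 to 0.00.

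**Figure D1:**
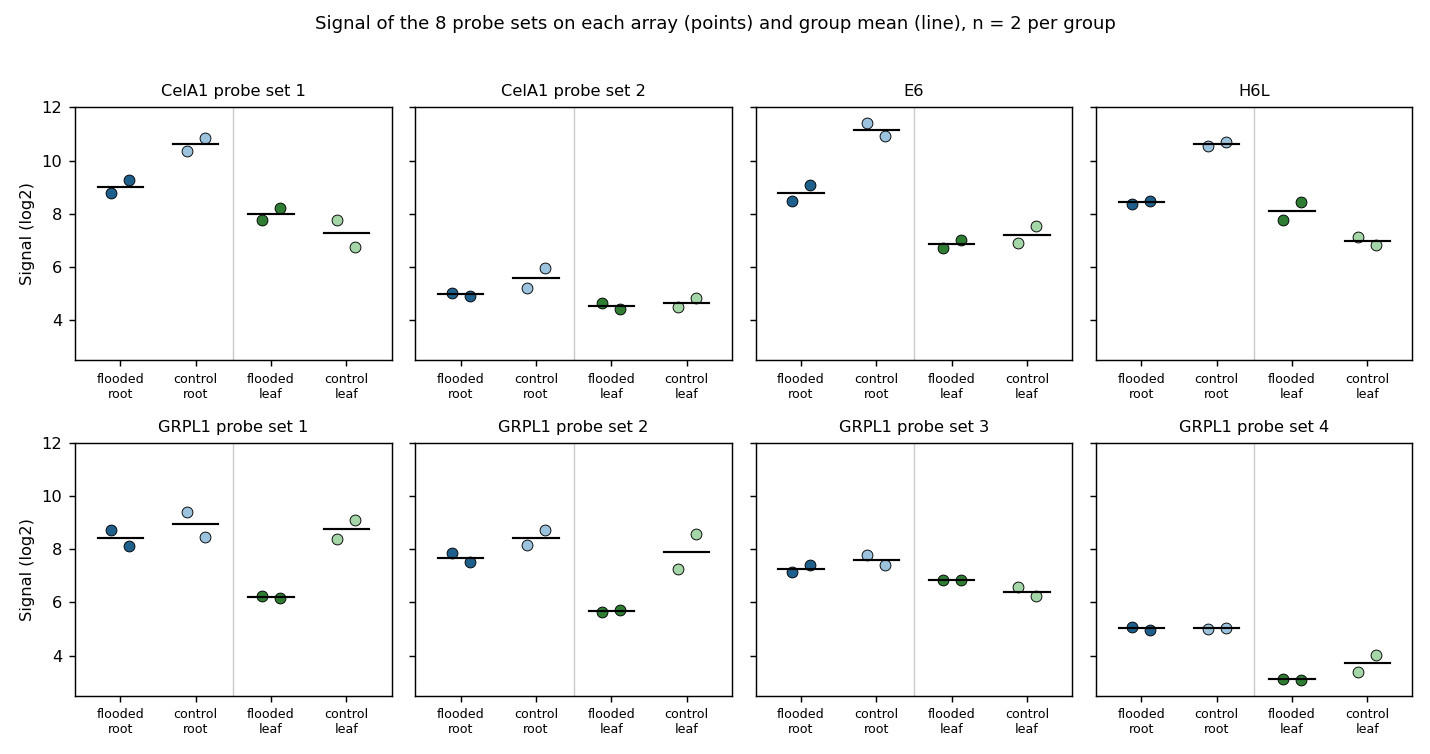
Deposited signal (log2, vertical axis) of the 8 probe sets on each array, with flooded and control root on the left of each panel and flooded and control leaf on the right; points are arrays, lines are means of 2 arrays, and probe sets of a gene are numbered from the brightest. CelA1 probe set 1, E6 and H6L sit lower in flooded than in control root, and GRPL1 probe sets 1 and 2 sit lower in flooded than in control leaf.

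By the limma fit over all probe sets (adjusted p under 0.05), 3 of the 8 probe sets were past the threshold in root, all lower: the brighter one of CelA1, E6 and H6L. Of all tested probe sets 4.28% were lower in root by the same rule. In leaf 2 were lower, both of GRPL1, where 3.05% of all probe sets were lower, and H6L was higher, where 2.21% were higher. These counts follow from how the genes were picked, and nothing is read from them. CelA1 was not past the threshold in root with array weights, with the replicate block or with the root arrays alone, nor without flooded root replicate 1 (-1.36) or 2 (-1.84), without control root replicate 2 (-1.35) or without either flooded leaf array. Dropping a leaf array leaves the root values as they are and changes the shared spread. H6L in leaf was not past it in 11 of 16 alternatives, among them each one that dropped a leaf array or a flooded root array, with differences of 0.79 to 1.48. Both GRPL1 probe sets missed it in leaf without control leaf replicate 2 or either flooded leaf array, and the second also without either flooded root array and after quantile normalization over 8 arrays.

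Set against all probe sets, 0.541% had a lower root difference than E6, 0.766% a lower one than H6L and 1.89% a lower one than CelA1. In leaf, 0.175% and 0.320% had a lower difference than the brighter GRPL1 probe sets, and 97.7% lay below H6L. Non-overlap alone was common with 2 arrays a group: both flooded arrays lay below both controls for 21.4% of all probe sets in root and 31.0% in leaf, and above them for 25.5% in leaf. Among the 8 probe sets, 5 were so ordered in root, all downward: both of CelA1, E6, H6L and 1 of GRPL1. In leaf 3 were lower, all of GRPL1, and 3 were higher, of CelA1, H6L and GRPL1.

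**Figure D2:**
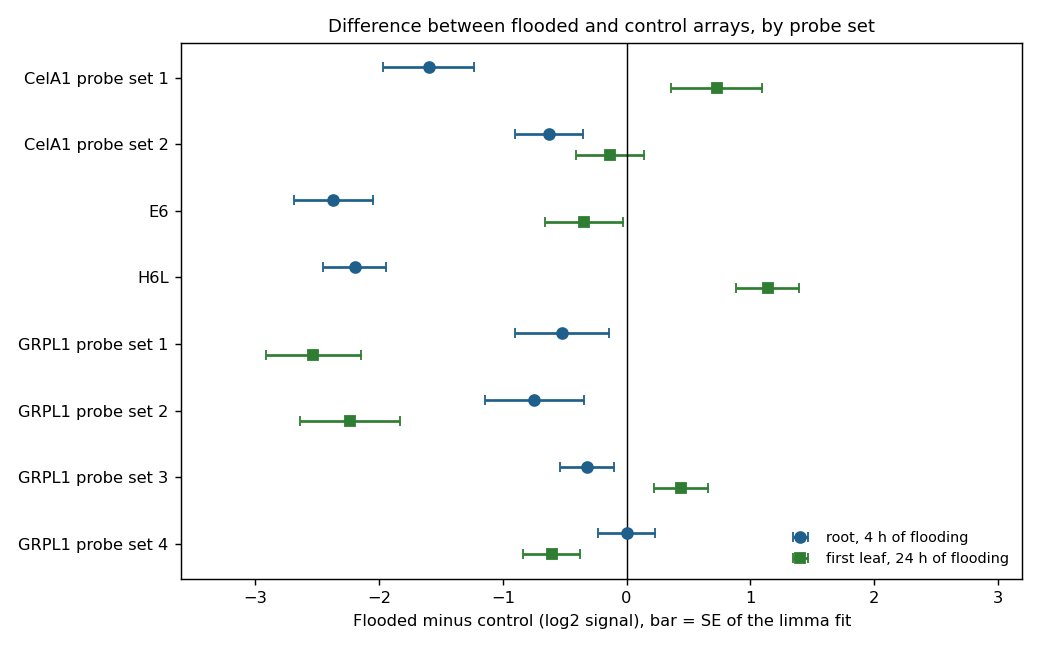
Flooded minus control signal (log2, horizontal axis) for each of the 8 probe sets in root (circles) and first leaf (squares); bars are the SE of the limma fit over 8 arrays. H6L stands at -2.20 in root and 1.14 in leaf, and the brightest GRPL1 probe set at -0.52 and -2.53.

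The root difference minus the leaf difference was -3.34 (SE 0.36) for H6L, -2.33 (SE 0.52) for the brighter CelA1 probe set and -2.02 (SE 0.45) for E6. These contrasts are built from the differences that chose the genes, so they too are a description. Of the 8 probe sets, these 3 were past the threshold of the fit, in which 3.47% of all probe sets were lower. For the brighter GRPL1 probe sets the contrast was 2.01 (SE 0.54) and 1.49 (SE 0.57), neither past the threshold. Among alternatives that kept all 8 arrays, the first was past it after quantile normalization within tissue, with the filter on low values and with the replicate block. The second was past it in none of these. Over all the alternatives the values of the first ran from 1.53 to 2.49, and those of the second from 0.84 to 2.13. Over the 14 alternatives the values of H6L ran from -3.68 to -2.99, those of CelA1 from -2.83 to -1.82 and those of E6 from -2.35 to -1.70. CelA1 and E6 missed the threshold in 7 of 14 each: with array weights, with the replicate block, without any 1 of the 4 flooded arrays, and CelA1 without control leaf replicate 2 (-1.82), E6 without control leaf replicate 1 (-1.70).

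The rank of each probe set within its array allowed the tissues to be set side by side. A rank also depends on how well the probes bind, so it is compared between groups for the same probe set. In flooded root CelA1, E6 and H6L stood at mean percentiles of 80.3, 78.0 and 74.6, and in control root at 93.1, 95.7 and 93.3. In flooded leaf they stood at 76.5, 64.8 and 77.6, and in control leaf at 69.1, 68.5 and 65.9. The dim CelA1 probe set stood at 20.7 in flooded root, 39.1 in control root, 40.4 in flooded leaf and 40.7 in control leaf.

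For CelA1, flooded root (77.9 and 82.6) lay below control root (91.2 and 94.9), and flooded leaf (74.6 and 78.4), which overlapped flooded root, lay above control leaf (74.5 and 63.8). For E6, flooded root (75.0 and 81.0) lay below control root (96.2 and 95.2) and above both leaf groups, where flooded (63.3 and 66.3) and control arrays (65.0 and 72.1) overlapped. For H6L, flooded root (74.1 and 75.1) lay below control root (92.3 and 94.3) and overlapped flooded leaf (74.3 and 80.9), and control leaf (67.4 and 64.3) was lowest. GRPL1's brightest probe set had another order: flooded leaf was lowest at a mean of 58.4, flooded root stood at 74.3, and control root at 81.0 and control leaf at 83.9 overlapped.

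On the signal scale, control root minus control leaf was 3.94 (SE 0.32) for E6, 3.65 (SE 0.25) for H6L and 3.34 (SE 0.37) for CelA1. The median over all probe sets was 1.08, so relative to it the values were 2.86, 2.57 and 2.26. After quantile normalization over the 8 arrays that median was 0.08 and the differences were 3.50, 3.19 and 2.85. For the brightest GRPL1 probe set the difference was 0.19 as deposited and -0.32 after quantile normalization, so its direction depended on the scaling. The control root arrays also enter the flooding comparison, so these values are given without a test.

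**Figure D3:**
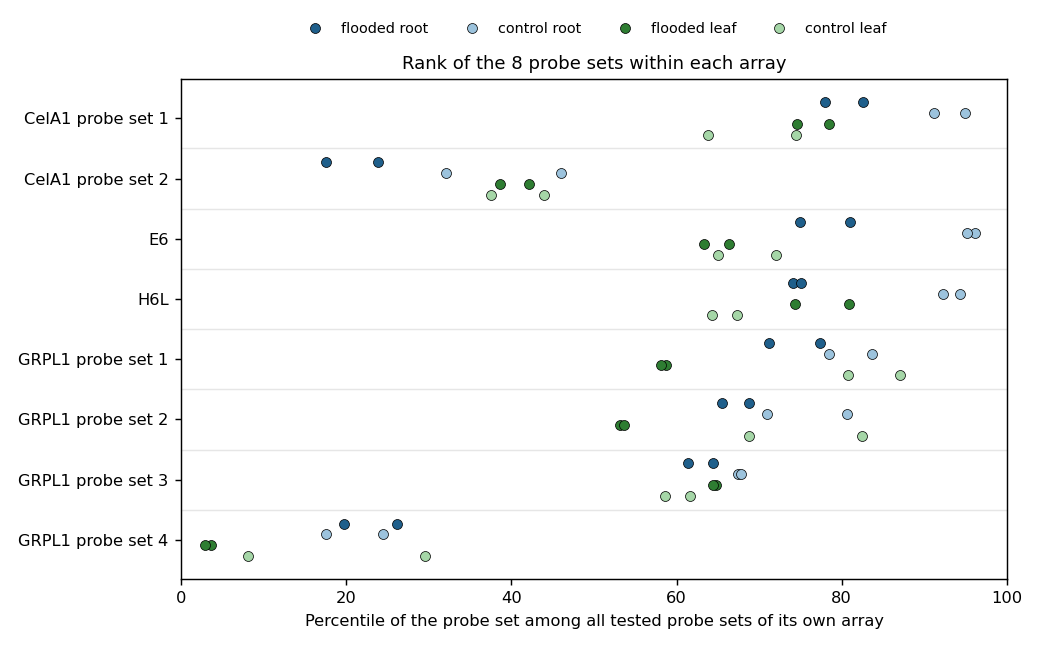
Percentile of each probe set among all tested probe sets of its own array (horizontal axis); each point is 1 array, with flooded root, control root, flooded leaf and control leaf from top to bottom within a row. E6 stands at 75.0 and 81.0 on the flooded root arrays and at 96.2 and 95.2 on the control root arrays.

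The likeness of the 4 genes to one another was described by Pearson correlation over the 8 arrays after each tissue's mean was subtracted. These arrays share the flooding groups, so any pair that responds alike will correlate. H6L and the brighter CelA1 probe set had r = 0.94, H6L and E6 0.76, and CelA1 and E6 0.66. The brightest GRPL1 probe set had r = -0.32 with CelA1, -0.28 with H6L and 0.34 with E6. The CelA1 probe sets had r = 0.48 with each other, and GRPL1's brightest had 0.90, -0.50 and 0.85 with its other 3 in order of brightness. The second and the fourth had 0.92, so 3 of the 4 varied together and the third did not.

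Of the other 245 named genes, those most like CelA1 were CTL1 (r = 0.97), a chitinase-like protein known to be needed for cellulose deposition in Arabidopsis, UGD2 (0.96), a UDP-glucose dehydrogenase that supplies precursors of matrix polysaccharides, and FLA6 (0.94), a fasciclin-like arabinogalactan protein. UGD2 differed by -1.77 in root and 0.46 in leaf. The genes most like H6L were CTL1 (0.99), FLA6 (0.98) and MFS (0.98), and MFS differed by -1.92 in root and 1.18 in leaf. Those most like E6 were the apyrase APY1 (0.98), the pectate lyase Pel (0.96) and cva69.24 (0.96), whose leaf differences ran from -0.29 to 0.00. The brightest GRPL1 probe set was most like EF1A2 (0.97) and EF1A7 (0.95), elongation factors of translation, and ERF8 (0.94), with leaf differences of -0.99, -1.92 and -0.84.

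The wider wall list held 42 probe sets of 28 other genes, in 3 groups. This list and those below were chosen with earlier results of these data known. Their counts and medians are therefore a description, and nothing is read from them. In root 16 of the 42 were lower and 2 higher, against 4.28% lower and 6.40% higher over all probe sets and 17.3% lower and 9.57% higher over the 324 named ones. The median difference of the list was -0.79, against -0.02 over all probe sets. In leaf 5 were lower and 2 higher, against 3.05% and 2.21% over all and 6.48% and 4.94% over the named ones, and the median was -0.11, against -0.04 over all. In root the count past the threshold was 2 without flooded root replicate 1 and 9 without replicate 2, and in leaf it was 0 without either flooded leaf array (11 and 10 at an unadjusted p under 0.05 in limma), 3 and 2 without control leaf replicate 1 and 2, and 2 without either flooded root array.

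The group of cellulose and secondary wall genes, those nearest to CelA1, had 6 probe sets. In root CTL1 fell (log2 difference -1.24) and both probe sets of SusA1, a sucrose synthase, rose (3.53 and 1.50). Sucrose synthases release UDP-glucose from sucrose. The other sucrose synthases and CslD1, a cellulose-synthase-like protein, were not past the threshold, with susC at -0.60, Sus1 at -0.08 and CslD1 at 0.06. In leaf none of the 6 was past the limma threshold, and 2 were at an unadjusted p under 0.05. CTL1 stood at 0.76 there (limma adjusted p = 0.13), susC at 0.61 and SusA1 at 0.03 and 0.01. The call of CTL1 in root was lost in 4 alternatives, among them without either flooded root array. That of the weaker SusA1 probe set was lost in 2, among them without flooded root replicate 1.

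Structural wall proteins were all of the fasciclin-like arabinogalactan family, in 19 probe sets of 12 genes. In root 8 fell and 0 rose: FLA13 (-2.01 and -1.92), FLA (-2.08 and -1.91), fla-12 (-1.94), FLA15 (-1.86) and FLA6 (-1.40 and -1.33). By the same rule 4.28% of all probe sets and 17.3% of the named ones were lower in root. In leaf 4 fell, FLA (-3.41 and -3.14), FLA4 (-2.17) and fla-12 (-1.58), against 3.05% lower over all probe sets and 6.48% over the named ones. FLA6 had the layout of H6L, with 0.76 and 0.57 in leaf, neither past the threshold. FLA was lower in both tissues, as was fla-12. Without flooded root replicate 1 all 8 root calls were lost, and without either flooded leaf array all 4 leaf calls.

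The group of loosening and matrix enzymes had 17 probe sets of 11 genes. In root 7 fell and 0 rose, against 4.28% lower over all probe sets and 17.3% over the named ones. Those that fell were EXPA3D (-2.95 and -2.24) and Exp (-1.73), expansins that loosen walls, Pel (-2.70), the xyloglucan enzyme XTH (-2.60), GLU (-1.10) and CEL (-1.01). Without flooded root replicate 1 the call of Pel was kept and those of the other 6 probe sets were lost. The call of XTH was also lost without either control root array or either flooded leaf array. In leaf XTH fell (-3.33), while GLU (1.01) and another probe set of Pel (0.88) rose. The Pel probe set that fell in root differed by -0.29 in leaf, and the one that rose in leaf by -0.19 in root. A second probe set of this XTH gene differed by -0.67 in root and -0.87 in leaf, neither past the threshold. Another gene named XTH had no call in either tissue. GLU and H6L were the probe sets of the wall list and the 4 genes with a call in both tissues and opposite signs. The leaf calls of GLU and Pel were both lost whenever a leaf array or a flooded root array was dropped. That of XTH was lost when control leaf replicate 1 or a flooded leaf array was dropped.

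**Figure D4:**
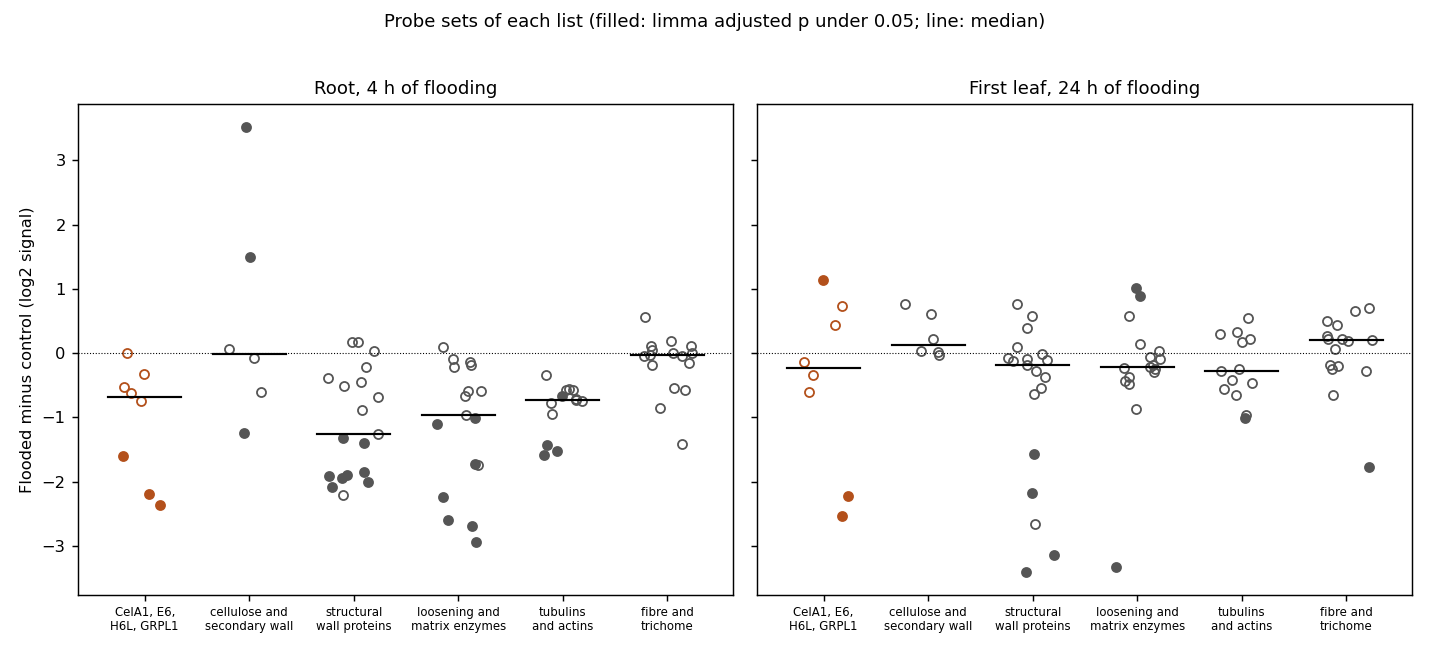
Flooded minus control signal (log2, vertical axis) for the 8 probe sets and 5 lists of other genes, in root (left) and first leaf (right); each point is a probe set, filled where the limma adjusted p was under 0.05, and lines are medians. In root the points of structural wall proteins reach to -2.20 and those of loosening and matrix enzymes to -2.95. The fibre and trichome list, many of whose probe sets were dim, has a median of -0.04.

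Trichomes are surface hairs that share regulators with fibre cells, and markers of both were read beside these genes. None of the 16 probe sets of 11 genes was past the limma threshold in root (2 were at an unadjusted p under 0.05), and their median was -0.04. The count was 1 after quantile normalization or with the filter on low values, and 2 without either control root array. The range was -1.42 for DET2, a steroid reductase of brassinosteroid synthesis, to 0.56. Many of these probe sets were dim, with little room to fall. In control root KCS10, KCS12 and KCS45 averaged 4.98, 4.36 and 5.86, under the reporter bound of 6.43, while ACT1 averaged 12.86. The root median of the list therefore says little. In leaf 1 fell, the annexin AnnGh1 (-1.77), against 3.05% lower over all probe sets, and the median of the list was 0.20. The call of AnnGh1 was lost whenever 1 leaf array was dropped. The fibre transcription factors HOX3 and myb109 averaged 5.35 and 4.71 in flooded root and 5.24 and 4.71 in control root, under the reporter bound. In leaf they averaged 4.92 and 3.28 in flooded and 4.85 and 3.09 in control arrays, also under it. Several of these genes, such as the actin ACT1 and the 14-3-3 protein 14-3-3L, are used by many cell types. The part of trichome or other cell types in the differences of the 4 genes was not tested.

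Tubulins and actins form the cytoskeleton that guides wall deposition. Of 13 probe sets of 11 genes, 4 fell and 0 rose in root, against 4.28% lower over all probe sets and 17.3% over the named ones, and 1 fell and 0 rose in leaf, against 3.05% and 6.48%. All 13 root differences were below 0, from -1.59 to -0.34, with a median of -0.74, where 12680 of all 24029 probe sets were below 0. With 1 array left out, 3 to 6 were called in root, 6 of them without control root replicate 2. Quantile normalization over 8 arrays gave 8. The leaf call, BTub4 (-1.01), was lost without either flooded root array and whenever 1 leaf array was dropped, and 2 were called without either control root array.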

How the data were processed

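The authors deposited log2 probe set signals for 24132 probe sets on 8 arrays. The submitters' processing notes name RMA and limma, without version or role. RMA compresses low signals, so differences of dim probe sets may be understated; no detection call was used. The 103 manufacturer controls were left out, without any filter or pseudocount. Signals were fitted as deposited in limma 3.58.1 (R 4.3.3) with 1 mean per group and a shared spread (4 residual degrees of freedom), with Benjamini-Hochberg adjustment over 24029 probe sets. The fit was also run on simulated data with 200 changed probe sets, as a check of the code only. The number of arrays limits precision (2 against 2 allows no exact permutation p under 0.333), and p-values measure the spread between arrays only. Names came from the platform table (1 gene for 697 probe sets) through RefSeq assembly Gossypium_hirsutum_v2.1. Upland cotton has A and D gene copies that probes may not separate. Members and lists were chosen with earlier results of these data known. Named were all member probe sets, the 3 named genes most like each member's brightest probe set, and the wall list's called probe sets. Alternatives covered normalization, filtering, variance model, array weights, tissue alone, replicate block and leaving out arrays.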

Additional observations from a re-analysis of the deposited data

Results flagged for a closer look

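The genes were chosen on their flooding differences in these arrays, so the values here describe that choice and test nothing. The root difference minus the leaf difference on the log2 scale was past the threshold of the limma fit (adjusted p under 0.05) for 3 of the 8 probe sets, where 3.47% of all probe sets were lower. It was -2.33 for the brighter CelA1 probe set, -2.02 for E6 and -3.34 for H6L. The dim CelA1 probe set stood at -0.49, not past the threshold. The brighter CelA1 probe set and E6 missed the threshold in 7 of 14 alternatives each. Roots were sampled after 4 h and leaves after 24 h, so tissue and time cannot be told apart in these differences.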

How the results depend on the processing

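The limits come from 2 arrays a group. Of the 8 probe sets, 3 were called in leaf, against 1 after quantile normalization over the 8 arrays and 0 to 3 when 1 array was left out (3 at an unadjusted p under 0.05 in limma wherever it was 0). For the root minus leaf contrast 3 were called, against 1 with array weights and 1 to 4 with 1 array left out. Of the wall list, 18 were called in root, against 9 with array weights, 9 with the root arrays alone and 2 to 22 with 1 array left out. In leaf 7 were called, and 0 to 8 with 1 array left out. With the replicate block it was 3, and with the crossed replicate block, added after seeing the data, 4. The numbers are not stated to pair plants, and deviations of same-numbered arrays correlated at 0.04 in root and -0.19 in leaf. The dim CelA1 probe set changed sign in control root minus control leaf after quantile normalization over 8 arrays (-0.040). Over all probe sets 2566 were called in root and 1262 in leaf, against 1399 and 3034 with array weights, 1021 and 2106 with each tissue alone, 1946 and 497 with the replicate block, 670 in leaf with the crossed block, and 997 to 6781 and 0 to 3245 with 1 array left out (2642 at an unadjusted p under 0.05 in limma where it was 0). Causes were not tested.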
